A study of Homo sapiens with 43 samples.

Results

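Peak lists from 3 eCLIP libraries of HNRNPC were compared: one made with an antibody against the protein itself and one from each of the V5-tagged forms. They were taken as the lists of the samples titled for HNRNPC wild type, V5 isoform 1 and V5 isoform 2, with every row kept, and hold 171662 of the 1430241 peaks in the 25 lists of the series. eCLIP crosslinks proteins to RNA with ultraviolet light, immunoprecipitates the protein, cuts the complex from a gel and sequences the attached RNA beside a size-matched input. All used HEK293T, an established line from human embryonic kidney. The wild-type library used untagged cells and an HNRNPC antibody from MBL. Both tagged libraries used a V5 antibody from Bethyl on cells whose own gene carried the tag, which the series title describes as integrated with CRISPR/Cas9. The labels do not say which end of the protein was tagged, whether a tagged line was 1 clone, or which known protein form "isoform 1" and "isoform 2" stand for. Each state had 1 library and its own input, so there is no replicate error, no test between states was possible, and intervals below are 95% Wilson intervals for counting error over peaks only.

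HNRNPC is an abundant nuclear protein that coats nascent transcripts and prefers runs of uridine. It is known for binding introns, for keeping cryptic exons inside transposable elements from being spliced in, and for competing there with the splicing factor U2AF2. Its splice forms share the RNA-binding domain.

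The wild-type list held 63020 peaks, isoform 1 held 49319 and isoform 2 held 59323. Their widths were alike, with medians of 32, 29 and 32 nt. The authors' log2 fold of immunoprecipitation over input was above 0 in 89.2% of peaks with the native antibody, 84.8% with isoform 1 and 88.7% with isoform 2, with medians of 1.05, 1.11 and 1.19. The upper ends differed more than the medians. The 95th percentile was 2.90 for wild type, 2.60 for isoform 1 and 2.93 for isoform 2, and a log2 fold of 5 or more was reached by 34 wild-type, 3 isoform 1 and 8 isoform 2 peaks. Enrichment in these lists was broad and shallow, with few peaks far above input.

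A peak is called significant here when the authors' −log10 p and log2 fold are both at least 3, that is, at least 8-fold over input. This rule took 1357 wild-type peaks (2.15% of the list), 375 isoform 1 peaks (0.76%) and 1168 isoform 2 peaks (1.97%). The low number in isoform 1 came with fewer peaks passing either part of the rule. A −log10 p of at least 3 was reached by 2510, 1277 and 3186 peaks, and a log2 fold of at least 3 by 2678, 1145 and 2498, in the order wild type, isoform 1, isoform 2. Isoform 2 thus had more peaks past the p-value than wild type, and 2018 of them fell short on fold, against 1153 in wild type and 902 in isoform 1. With a log2 fold of at least 2, the order of wild type and isoform 2 turned round, at 2311 and 2776 peaks, while isoform 1 had 920. Many peaks lay close to the threshold: among those passing the p-value, 229 wild-type, 94 isoform 1 and 251 isoform 2 peaks had a log2 fold from 3 to under 3.2, and 265, 121 and 401 had one from 2.8 to under 3. Read totals were not used here, and sequencing depth is not known.

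Peaks on the mitochondrial genome had a median fold below input in each HNRNPC list. There were 140 (wild type), 144 (isoform 1) and 129 (isoform 2), none was significant, and their median log2 folds were −1.83, −2.39 and −2.17. The median was also below 0 in the 8 lists of the other proteins, from −1.10 to −0.11. In the 7 V5-only lists, made with the V5 antibody and named without a protein, it ran from −0.36 to 0.74. In the 7 FLAG-only lists, also named without a protein, it ran from 0.16 to 1.42.

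Most sites that were significant with the native antibody were also called as peaks in the tagged libraries, although few of them passed the threshold there. Taking all rows, 35.1% of wild-type peaks (34.7% to 35.4%) overlapped an isoform 1 peak on the same strand by at least 1 nt, and 43.3% (42.9% to 43.7%) overlapped an isoform 2 peak. On the opposite strand these shares were 0.0159% and 0.00793%, from 10 and 5 peaks. Among the 1357 significant wild-type peaks the share rose to 69.4% (66.9% to 71.8%) for isoform 1 and 78.6% (76.3% to 80.7%) for isoform 2, against 34.3% and 42.5% among the other wild-type peaks. No significant wild-type peak had a tagged peak on the opposite strand, which allows a share of up to 0.282% at the interval's upper bound.

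By called peaks, both isoforms covered largely one set of native sites. Of the significant wild-type peaks, 64.8% (62.2% to 67.3%) were called in both tagged lists, 4.64% in isoform 1 and not 2, 13.8% in isoform 2 and not 1, and 16.8% (14.9% to 18.9%) in neither. The corresponding shares of the other wild-type peaks were 25.3%, 9.0%, 17.2% and 48.5%. By significant tagged peaks the isoforms shared less. Such a peak lay at 31 of the 1357 sites in both lists, at 60 in isoform 1 and not 2, and at 122 in isoform 2 and not 1. The 228 significant wild-type peaks called in neither were narrower, with a median of 31 nt against 47 nt for the 699 called in both without being significant. Their median log2 fold was 3.68 against 3.64, and their median −log10 p was lower, at 3.89 against 4.88.

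The state of each native site in the tagged lists is shown by the plot of significant peaks by class. Of the 1357 wild-type peaks, 91 were significant in isoform 1, 33 passed on fold alone, 207 passed on p alone and 491 had a log2 fold from 1 to 3 with neither part passed. A further 107 had a log2 fold from 0 to 1, 13 were below 0 and 415 were not called. In isoform 2 the corresponding numbers were 153, 42, 295, 499, 70, 7 and 291. A called partner below input lay at 0.958% and 0.516% of all 1357 sites. Among called partners alone, 98.6% in isoform 1 and 99.3% in isoform 2 had a log2 fold above 0. Over all peaks of these lists the shares above 0 were 84.8% and 88.7%. The background for the first class was low: 0.517% of all wild-type peaks overlapped a significant isoform 1 peak and 1.24% a significant isoform 2 peak, while the shares of significant wild-type peaks were 6.71% (5.49% to 8.16%) and 11.3% (9.70% to 13.1%).

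**Figure D1:**
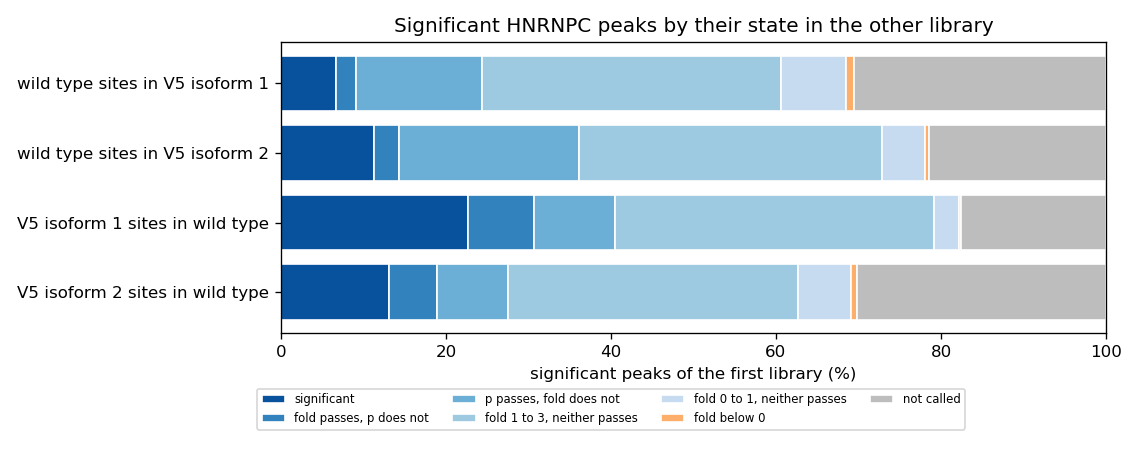
Share of significant HNRNPC peaks of one library (each bar, in percent) by the state of the best overlapping peak in the other library, in log2 fold over input and the authors' p. Grey marks peaks with no called partner, 30.6% and 21.4% of wild-type sites in isoform 1 and isoform 2, and the darkest part marks significant partners, 6.71% and 11.3%.

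In the reverse direction the order of the isoforms differed between all peaks and significant peaks. Of all isoform 1 peaks 44.4% overlapped a wild-type peak, and of all isoform 2 peaks 46.4%. Among the 375 significant isoform 1 peaks 82.4% (78.2% to 85.9%) had a called wild-type peak, and among the 1168 of isoform 2 69.9% (67.2% to 72.4%). A significant wild-type peak lay under 85 of the isoform 1 peaks and 153 of the isoform 2 peaks, or 22.7% and 13.1%, where all peaks of these lists gave 1.88% and 1.83%. The share of isoform 2 sites with no called wild-type partner, 30.1% (27.6% to 32.8%), was the same size as the share of wild-type sites missing from the isoform 1 list, 30.6% (28.2% to 33.1%). The shares depend on list length. In lists of equal length, the 375 significant peaks of highest fold in each library, 8.53% of wild-type peaks overlapped isoform 1 and 4.27% overlapped isoform 2, so that the order of the isoforms turned round. In the reverse direction the equal-length shares were 7.2% of isoform 1 and 4.0% of isoform 2 peaks, over 3 times below those of the full lists.

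Where a native site was called with the tag, its enrichment there was higher than at the other wild-type peaks. At significant wild-type peaks the median log2 fold of the overlapping peak was 1.97 in isoform 1 (quartiles 1.43 and 2.57) and 2.14 in isoform 2 (1.61 and 2.76), and at other wild-type peaks it was 1.11 and 1.34. The wild-type folds at the same significant peaks had medians of 3.68 and 3.64. These sites had been chosen for a high wild-type fold, so the wild-type and tagged medians are given side by side and not compared. The reverse choice gave a like picture, with wild-type medians of 2.73 at significant isoform 1 peaks and 2.25 at significant isoform 2 peaks, against 1.31 at the other peaks of either list. Where several peaks of the other list overlapped a peak, the highest of their folds was taken, here and above. Over all overlapped wild-type peaks, which were not chosen on wild-type fold, the medians were close. They were 1.31 in wild type and 1.11 in isoform 1 over 22093 peaks, and 1.31 in wild type and 1.34 in isoform 2 over 27282. Across these peaks Pearson's r of the log2 folds was 0.56 for isoform 1 and 0.55 for isoform 2, and Spearman's rho 0.39 and 0.38. These are correlations across peaks of single libraries, which share sites, transcript abundance and low read numbers, and peaks are not independent replicates.

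Recovery rose with the strength of the native peak in both isoforms. In the class from 0 to under 1 on the log2 scale, with 20407 wild-type peaks, 27.1% were called in isoform 1 and 33.7% in isoform 2. From 2 to under 3, over 10903 peaks, the shares were 44.4% and 55.4%. From 4 to under 5, over 270 peaks, they were 74.8% (69.3% to 79.6%) and 81.1% (76.0% to 85.3%). The 34 peaks of 5 and above gave 88.2% (73.4% to 95.3%) and 85.3% (69.9% to 93.6%). The intervals of the isoforms overlapped in the class from 4 to under 5 and in that of 5 and above. Wild-type peaks below input broke the order, with 33.4% and 39.1% of 6809 peaks called, more than in the class from 0 to 1. For significant tagged peaks the share in isoform 2 went from 0.358% in the class from 0 to 1 to 7.20% from 3 to under 4 and 23.5% (12.4% to 40.0%) at 5 and above.

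**Figure D2:**
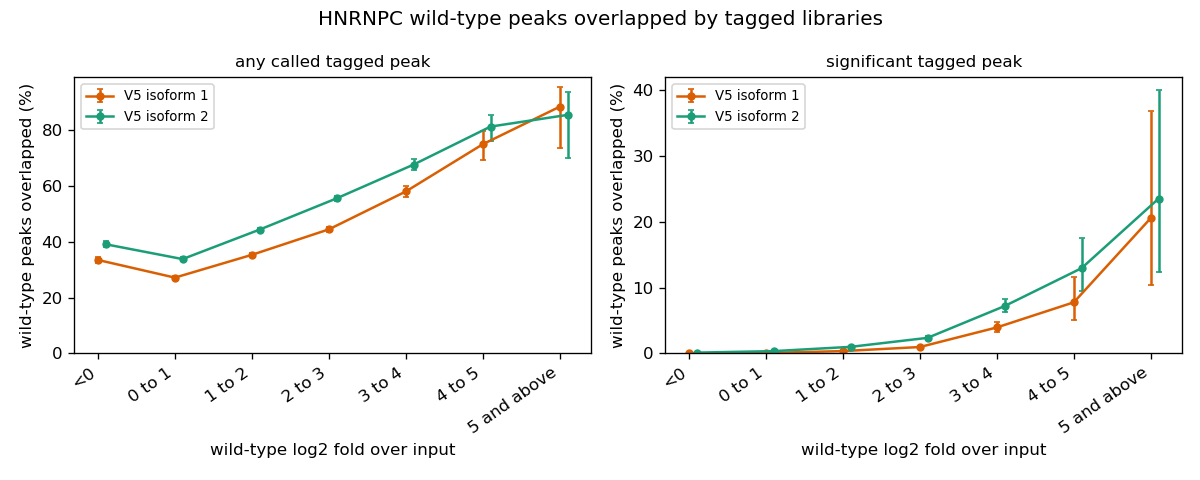
Percent of HNRNPC wild-type peaks overlapped on the same strand by any called tagged peak (left) and by a significant tagged peak (right), by class of wild-type log2 fold over input; bars are 95% Wilson intervals. Isoform 2 lies above isoform 1 in each class from below 0 to 4 to 5 on the left, reaching 81.1% against 74.8%. The intervals overlap in the class from 4 to 5 and in the highest class.

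Where peaks of the native and tagged libraries overlapped, their 5′ ends mostly lay within 5 nt of each other. eCLIP reads often end where the crosslinked protein stopped the reverse transcriptase, so the 5′ end of a peak is close to the contact. From the 5′ end of a significant wild-type peak to the 5′ end of the overlapping isoform 1 peak the median distance was 3 nt, and 66.9% of 942 pairs lay within 5 nt. For isoform 2 the median was 2 nt, and 72.1% of 1066 pairs lay within 5 nt. The other wild-type peaks were less well aligned, with a median of 5 nt and 52.1% and 56.0% within 5 nt. At significant wild-type peaks the overlapping peaks of the 7 V5-only lists lay within 5 nt in 39.9% to 56.0% of pairs. For comparison, RBFOX2, another nuclear splicing regulator of the series profiled with a native and a V5 antibody, had 30.7% of 1837 pairs within 5 nt and a median of 11 nt at its significant wild-type peaks. At its other wild-type peaks 33.3% of 10082 pairs lay within 5 nt. Its significant peaks were wider, with a median of 58 nt against 43 nt for HNRNPC wild type. RBFOX2 also differed in how its sites were recovered: 60.2% (58.5% to 62.0%) of 3049 significant wild-type peaks were called in its V5 list, fewer than for HNRNPC, but 29.6% were significant there, and the median log2 fold at the called ones was 3.07. Its background differed too: 25.0% of its other wild-type peaks were called in the V5 list, and 3.38% of all its wild-type peaks overlapped a significant V5 peak. These differences rest on 1 library per state and were not tested.

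Some significant peaks of the native and tagged lists lay near each other without touching, although most wild-type ones had no significant tagged peak within 10 kb. Within 100 nt on the same strand 8.92% of significant wild-type peaks had a significant isoform 1 peak, within 1 kb 12.9%, and within 10 kb 20.2% (18.1% to 22.4%). For isoform 2 the shares were 12.6%, 18.1% and 30.7% (28.3% to 33.2%). Of significant isoform 1 peaks 50.1% (45.1% to 55.2%) had a significant wild-type peak within 10 kb, and of isoform 2 peaks 33.8% (31.2% to 36.6%). All these shares include the overlapping peaks. Among the peaks that were not significant, the shares within 10 kb were 4.40% of wild-type peaks for isoform 1 and 8.50% for isoform 2, and 10.9% of isoform 1 and 10.1% of isoform 2 peaks for wild type. On the opposite strand the shares within 10 kb were 0.442% and 0.147% of wild-type peaks and 1.87% and 0.171% of isoform 1 and isoform 2 peaks. Neighbouring sites of the libraries were thus nearly all on one strand.

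**Figure D3:**
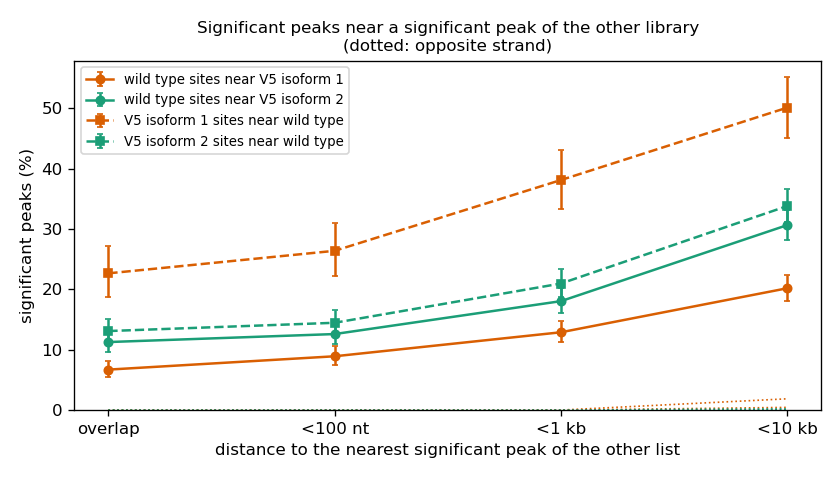
Percent of significant HNRNPC peaks with a significant peak of the other library overlapping or within 100 nt, 1 kb or 10 kb on the same strand (points, with 95% Wilson intervals) and on the opposite strand (dotted lines). All 4 same-strand curves rise with distance, to between 20.2% and 50.1%, while the opposite-strand lines stay at or under 1.87%.

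Stretches of a strand with several native sites more often held a tagged site as well. Chosen after the data were seen, as were the 5′ distances above, the genome was cut into stretches of 10 kb per strand, of which 1031 held a significant wild-type peak. Isoform 1 had a significant peak in 9.76% (7.89% to 12%) of the 799 stretches with 1 wild-type peak and in 41.1% (29.2% to 54.1%) of the 56 with 3 or more. Isoform 2 had one in 17.6% (15.2% to 20.4%) and 39.3% (27.6% to 52.4%) of them. All 9 stretches with 3 or more significant isoform 1 peaks held a significant wild-type peak, where 40.9% of the 323 stretches with any isoform 1 peak did. For isoform 2 no such rise was seen beyond 2 peaks: a significant wild-type peak lay in 21.2% of the 688 stretches with 1 significant isoform 2 peak, 34.2% of the 146 with 2 and 33.3% (22.2% to 46.6%) of the 54 with 3 or more. Among the stretches richest in wild-type sites, named here after their values were seen, chr1:28830001-28840000 (hg19, plus strand) had 8 significant wild-type peaks, none with isoform 1 and 2 with isoform 2. The tagged libraries called 29 and 24 peaks there against 28 in wild type, with median log2 folds of 1.89 and 2.02 against 2.53. At chr20:17940001-17950000 (minus strand) there were 6, 1 and 2 significant peaks in the same order, and the median log2 folds of called peaks were 3.08, 2.84 and 2.08. None of the 7 V5-only lists, which were made with the V5 antibody and are named without a protein, had a significant peak in the former stretch, and 2 such peaks lay in the latter. Another 2 stretches, on chromosome X, had 8 and 7 significant wild-type peaks and are not described further here; summed over the 7 lists, 22 and 1 significant V5-only peaks lay in them.

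Joining touching and overlapping peaks of the 3 lists gave 112533 regions, of which 15813 were called in all 3. The regions called in all 3 had higher median log2 folds, 1.51, 1.22 and 1.44 in wild type, isoform 1 and isoform 2, than those called in a single list, at 0.95, 0.69 and 1.02. Of 2361 regions significant in at least 1 library, 29 were significant in all 3, 54 in wild type and isoform 1, 104 in wild type and isoform 2, 38 in both isoforms and not in wild type, and 1007, 246 and 883 in wild type, isoform 1 or isoform 2 alone. Most regions that passed the threshold in one library were called in the others. Of the 1007 wild-type regions 667 were called in isoform 1, at a median log2 fold of 1.81, and 761 in isoform 2, at 1.98. Of the 883 isoform 2 regions 560 were called in wild type, at a median of 2.05, and of the 246 isoform 1 regions 189, at 2.19. In the other isoform, 504 of the 883 and 188 of the 246 were called. Over all peaks, not joined into regions, 35.1% of wild-type peaks overlapped an isoform 1 peak and 43.3% an isoform 2 peak. Of isoform 2 and isoform 1 peaks, 46.4% and 44.4% overlapped a wild-type peak, and 40.2% and 47.6% a peak of the other isoform. At a log2 fold of at least 2 the number of regions significant in all 3 libraries rose from 29 to 197, and at a −log10 p of at least 5 it fell to 10.

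The 29 regions shared by the native antibody and both tagged forms were short, between 39 and 223 nt with a median of 51 nt, and lay on 13 chromosomes. Their median log2 folds were 3.67 with the native antibody, 3.54 with isoform 1 and 3.46 with isoform 2. Wild type was the highest of the 3 in 18 regions, isoform 1 in 5 and isoform 2 in 6. None held a significant peak of FLAG-only or of another RNA-binding protein of the series, and 2 held a significant V5-only peak. A called peak of V5-only lay in 14, of FLAG-only in 5 and of another RNA-binding protein in 9. The corresponding shares over all regions are not given here, so none of these counts is read as high or low. The part of these lists in the shared signal was not tested. By the lowest of the 3 folds the first was at chr10:5240942-5240992 (minus strand) of hg19, the build of all positions here, with log2 folds of 5.07, 4.24 and 4.31 for wild type, isoform 1 and isoform 2, the order kept below. Each list had 2 peaks there, all significant, and peaks were also called there in 5 V5-only, 1 FLAG-only and 3 other protein lists, none of them significant. The second, at chr5:149402570-149402621 (plus strand), had nearly equal folds of 3.94, 3.97 and 4.15. The third, at chr1:109240175-109240231 (plus strand), was highest in wild type, with 5.03, 4.24 and 3.88.

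The order of the libraries varied among the other shared regions. At chr3:142750923-142750973 (plus strand) the folds were 4.96, 4.39 and 3.66. The site at chr16:30730233-30730285 (plus strand) had the same order, with 4.25, 3.97 and 3.68. Isoform 1 was highest at chr10:92660916-92660976 (plus strand), with 3.54, 4.15 and 3.66. This site was near the limit in wild type, where its −log10 p was 3.09. Isoform 1 was lowest at chr22:19095880-19095921 (minus strand), with 3.98, 3.43 and 3.65. Wild type was highest at chr1:71532166-71532216 (minus strand), with 4.50 against 3.55 and 3.39, and the lowest −log10 p of these 3 peaks was 7.67. The remaining 2, at chr1:163304613-163304652 (plus strand) and at chr19:5206021-5206070 (minus strand), stood at 3.82, 3.36 and 3.54 and at 3.61, 3.66 and 3.34.

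A pair of the shared regions lay on a single strand of chromosome 1 less than 10 kb apart. At 204520613 to 204520726 on the plus strand the log2 folds were 3.47, 3.26 and 3.46, and at 204522319 to 204522414 they were 4.67, 3.66 and 4.54. Another site of this stretch, at 204519976 to 204520003, was called in isoform 1 and in neither other HNRNPC list. It had a log2 fold of 3.92 and a −log10 p of 3.97, and was also called in 1 list of another protein. The former pair also carried called V5-only peaks, in 4 and 6 of the 7 lists, none of them significant. Peaks that were not significant were called there in 2 and 3 FLAG-only lists and in 7 and 3 lists of other proteins.

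**Figure D4:**
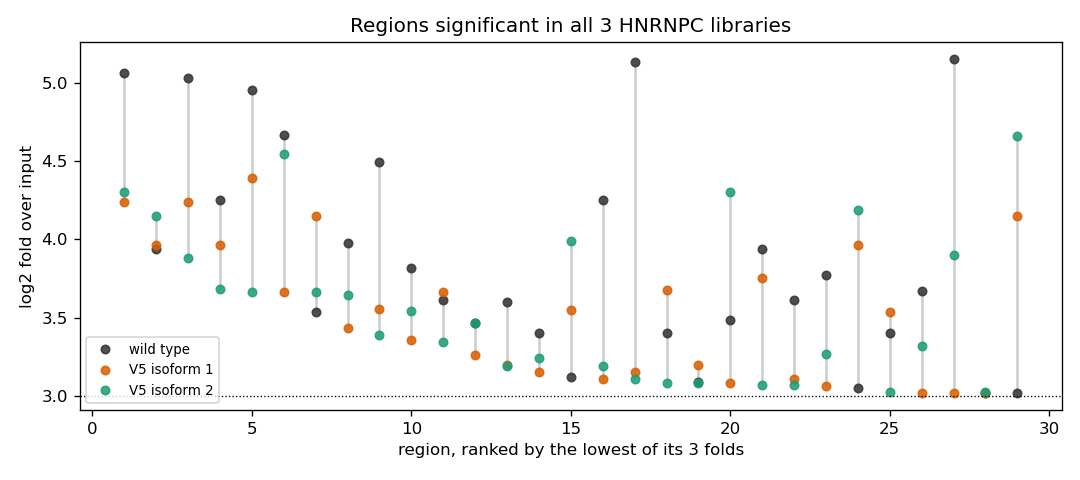
Log2 fold over input in wild type, V5 isoform 1 and V5 isoform 2 for the 29 regions significant in all 3 HNRNPC libraries, ranked by the lowest of the 3 values; the dotted line is the threshold of 3. Wild type is the highest point in 18 of the 29 regions, and its values reach 5.16.

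Of the 38 regions significant with both tagged forms but not with the native antibody, 30 were called in wild type, below the threshold. Over all regions called in both isoforms, 15813 were also called in wild type and 6940 were not, so this count is not read as high. None of these 30 was below input in wild type. Their log2 folds there ran from 0.93 to 3.48 with a median of 2.33, and 8 reached a fold of 3 without the p-value. The strongest by the lower of their tagged folds, chosen after their values were seen, lay at chr17:73137322-73137365 (minus strand), with 1.23 for the native antibody, 4.20 for isoform 1 and 4.15 for isoform 2. The next, at chrX:103430048-103430094 (plus strand), had 1.31, 4.11 and 4.58. In these a native peak was present but weak. A significant V5-only peak lay in 1 of the 38 regions, and a called one in 14. The shares over all regions are not given here, so these counts are not read as high or low either.

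Some strong sites were seen in a single library with no peak of any kind in either of the other HNRNPC lists. They made up 198 of the 1194 significant wild-type regions (16.6%, 14.6% to 18.8%), 31 of the 367 of isoform 1 (8.45%, 6.01% to 11.7%) and 231 of the 1054 of isoform 2 (21.9%, 19.5% to 24.5%). Being alone was more common over all called regions, at 48.3% of 61284 in wild type, 41.5% of 48249 in isoform 1 and 42.3% of 57419 in isoform 2. The highest in wild type had log2 folds of 5.16 at chr3:50004372-50004415 (plus strand), 5.03 at chr1:29492742-29492786 (minus strand), and 5.01 both at chr6:20410863-20410900 (plus strand) and at chr7:23571555-23571599 (minus strand). Isoform 2 reached 5.13 at chr22:28917187-28917204 (minus strand), 4.98 at chr9:36595832-36595869 (plus strand), 4.64 at chr21:32868243-32868281 (minus strand) and 4.61 at chr12:121338354-121338393 (minus strand). None of these 4 isoform 2 regions was called in any V5-only list. The wild-type regions on chromosomes 3 and 6 were called in 1 V5-only list each. These few named regions are not read as a difference between the libraries. Isoform 1 stayed lower, with 4.02 at chr1:151188165-151188179 (plus strand) and 3.97 at chr6:87935681-87935720 (plus strand). The lowest of its named regions were tied at 3.92, at chrX:73169289-73169325 (plus strand) and chr1:204519976-204520003 (plus strand). The former was called in 4 V5-only lists and the latter in none.

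Lists of other proteins and of the tag antibodies give the level of overlap to set beside these values. At significant HNRNPC wild-type peaks the 8 lists of FMR1, RBFOX2, LIN28 and DGCR8 had a called peak in 5.08% to 16.1%, and the 7 FLAG-only lists in 1.33% to 11.4%. At the other wild-type peaks these ranges were 3.92% to 7.38% and 2.36% to 5.78%. The share was higher at significant peaks in 4 of 4 native and 4 of 4 tagged lists of other proteins, and in 4 of 7 FLAG-only lists. The 7 V5-only lists reached 11.3% to 36.1%, against 4.68% to 13.4% at the other wild-type peaks, with the higher share at significant peaks in 7 of 7 lists. They stayed below the 69.4% and 78.6% of the tagged HNRNPC lists. V5-only was above FLAG-only in each of the 7 gel ranges. At significant isoform 1 peaks V5-only reached 4.80% to 20.8%, against 6.14% to 14.0% at the other peaks of that list, and at significant isoform 2 peaks 3.25% to 19.4%, against 5.36% to 13.8%. Significant V5-only peaks covered less, from 0.147% to 4.64% of significant wild-type peaks. Leaving out every peak at a significant V5-only site left 1262 wild-type, 360 isoform 1 and 1139 isoform 2 significant peaks, with 6.58% of wild-type peaks overlapping isoform 1 and 11.2% overlapping isoform 2. The part of V5-only signal in the overlap of called peaks was not tested beyond this. The labels do not say whether the cells of the V5-only libraries carried a tag.

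**Figure D5:**
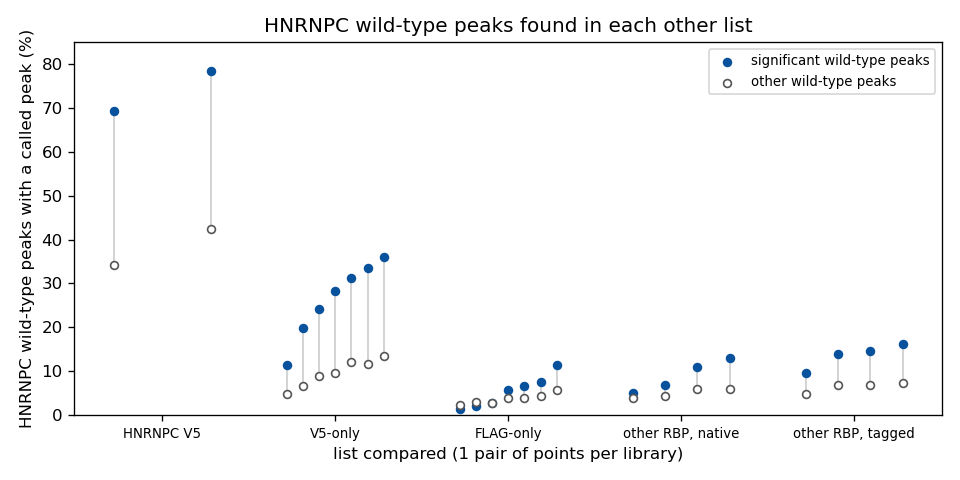
Percent of HNRNPC wild-type peaks with a called same-strand peak in each of the 24 other lists, for significant wild-type peaks (filled) and the other wild-type peaks (open), grouped by the kind of list; a grey line joins the pair of each library. The tagged HNRNPC lists stand highest, at 69.4% and 78.6%, and the V5-only lists lie at 11.3% to 36.1%.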

How the data were processed

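The authors deposited 1 peak list per immunoprecipitation library, without a header. Column 4 was read as the authors' −log10 p of immunoprecipitation over input and column 5 as the authors' log2 fold; both units follow from the file names and values. Per the submitters' processing notes, positions are in hg19 and cutadapt, STAR, GATK, Picard and SAMtools were used; no label or header names the peak caller. Both values are per peak and relative to each library's own input. Ranks and thresholds were applied within a list; folds set side by side across lists are descriptions, since no common scaling of the libraries is known.

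Overlaps were counted on the same strand, at 1 nt or more, with Python 3.11.15, pandas 2.3.3 and scipy 1.17.1, and checked on simulated lists against bedtools 2.31.1. The significance threshold is usual for this assay and is not from the labels. Named regions were up to 12 shared ones by the lowest of the 3 folds and 4 per library seen alone. The members, lists and rules were chosen with earlier results of these data known. The reference at hand was GRCh38, so gene names, annotations and sequences, including the planned windows around peaks, were not used here. Positions are 1-based.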

Additional observations from a re-analysis of the deposited data

Results flagged for a closer look

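The V5-only library cut at 150 to 225 kDa, which names no protein, had a called peak at 36.1% (33.6% to 38.7%) of the 1357 significant HNRNPC wild-type peaks and at 13.4% of the other wild-type peaks. It is listed because the FLAG-only library of that range, taken here as the control, had called peaks at 6.63% (5.43% to 8.08%) and 3.95%. In order of range from 25 to 100 kDa upward, the V5-only shares were 11.3% at 25 kDa, 28.3% at 50 kDa, 19.7% at 75 kDa, 24.2% at 100 kDa, 33.6% at 125 kDa, 36.1% at 150 kDa and 31.3% at 175 kDa, each named by its lower limit. FLAG-only gave 1.33%, 2.06%, 2.65%, 7.59%, 5.60%, 6.63% and 11.4% in the same order. The wild-type library used no V5 antibody. Median log2 folds of the V5-only peaks at these sites ran from 1.18 to 2.01, and those of FLAG-only from 0.19 to 1.06. At the other wild-type peaks they ran from 0.85 to 1.69 and from 0.83 to 1.83. Over all peaks of the V5-only lists the medians ran from 1.16 to 2.37. For the 150 to 225 kDa library the median was 1.57 at these sites, 1.18 at the other wild-type peaks and 1.67 over its whole list.

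The 5′ ends of the V5-only peaks of 150 to 225 kDa lay within 5 nt of the wild-type 5′ end in 55.1% of 490 pairs, where FLAG-only of that range had 33.3% of 90 pairs. Among significant wild-type sites, those also called with tagged HNRNPC more often had a called peak in at least 1 V5-only list than those called in neither. The share was 56.8% (50.1% to 63.3%) of the 213 significant in at least 1 isoform, 68.0% (64.4% to 71.3%) of the 699 called in both and significant in neither, 48.4% (41.8% to 55.0%) of the 217 called in 1 and 15.4% (11.2% to 20.6%) of the 228 called in neither. For FLAG-only these shares were 18.8%, 27.0%, 6.91% and 0.877%, also lowest for the sites called in neither. The share in at least 1 list was not counted for the other wild-type peaks. These values are therefore not set against the single-list shares above. No difference was tested, since each range and antibody had 1 library.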

How the results depend on the processing

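With 1 library per state, the values below cover counting error only, and the depth in reads is unknown. No paired analysis was possible because each state had 1 library and the labels give no replicate numbers. The planned share of windows holding a uridine run was not run, since no hg19 sequence was used here. At a −log10 p of at least 5, significant peaks were 0.852%, 0.205% and 0.668% of the list (wild type, isoform 1, isoform 2), the share of isoform 1 peaks overlapping wild type was 31.7%, and regions shared by all 3 fell to 10. At a log2 fold of at least 2 they were 3.67%, 1.87% and 4.68% and there were 197 shared regions. The overlap was then 18.0% of wild-type peaks with isoform 1, 28.5% with isoform 2, 42.0% of isoform 1 and 24.4% of isoform 2 peaks with wild type. At a log2 fold of at least 4, chosen after seeing the data, 0.482%, 0.105% and 0.297% of peaks passed. With 50% of both peaks shared, all-row overlap of wild type was 25.6% with isoform 1 and 33.1% with isoform 2, and that of significant peaks was 9.43% of wild type with isoform 2 and 11% of isoform 2 with wild type. Within 100 nt the all-row shares were 40.5% and 48.3%, and 8.92% of significant wild-type peaks had an isoform 1 partner. On the opposite strand the all-row shares were 0.0159% and 0.00793%. In lists of 375 peaks the shares were 8.53% of wild type with isoform 1, 4.27% with isoform 2, 7.2% of isoform 1 and 4.0% of isoform 2 with wild type. With any called partner they were 69.4%, 78.6%, 82.4% and 69.9%. Without significant V5-only sites the all-row share with isoform 1 was 34.6%. The remaining 22 values stayed within their interval or within 1.5 times the count.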
